A study of Mus musculus with 6 samples.

Results

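The G2/M and mitosis genes described here are 46 genes of mitotic cyclins, kinases, kinetochore, spindle and cytokinesis proteins, taken by symbol from the 16403 genes of the deposited count table. All 46 were found there, and all 46 were among the 12564 genes that passed the filter on low counts. They were measured by bulk RNA sequencing in LSK cells, the lineage-negative, Sca-1-positive, Kit-positive fraction of bone marrow that holds blood stem cells and early progenitors. The cells came from C57BL/6 mice with ligature-induced periodontitis (LIP), in which a thread tied round a tooth provokes gum inflammation, and from mice without a ligature (NL). Marrow was taken on day 7, with 3 libraries a group and the cells of 3 mice pooled in each library. No genetic change is named in either group, and the labels used here state no age for the mice. In pooled bulk samples, fewer dividing cells and less of an mRNA in each dividing cell cannot be told apart, and a library cannot show differences between the mice in it.

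As background, a cell enters mitosis when CDK1, bound to cyclin A or cyclin B, is freed from inhibitory phosphorylation. Polo-like and Aurora kinases then help to build the spindle, kinetochores link chromosomes to its microtubules, and a checkpoint holds the anaphase-promoting complex back until every chromosome is attached. Most of these mRNAs rise in G2 through promoters bound by the MuvB complexes with B-MYB and FOXM1. Within LSK cells, long-term stem cells are mostly quiescent, while the multipotent progenitors that make up most of the fraction divide often.

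The promoters of these genes share short sequence words that the choice of genes did not use. RefSeq promoter windows on GRCm38.p6 matched 39 of the 46 genes, with 42 windows. Searched in the 250 bases before the start site on both strands, CCAAT, the word bound by NF-Y, was in 34 of the 42 windows (81.0%). It was in 34.9% of the 16288 windows of all genes of the count table. TTTGAA or TTCGAA, the core words of the cell cycle homology region that MuvB complexes bind, was in 17 of the 42 (40.5%) against 13.3% of the windows of all genes of the table. TTCGAA reads the same on both strands, TTTGAA can share its end letters with CCAAT, and such overlaps were counted for both words. A match is only a run of letters, and whether a factor binds there was not measured.

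The 150 bases before the start site are printed for 6 genes whose mRNA differed between the groups, to show where these words sit. In capitals are the word CCAAT and the word TTTGAA, read on either strand, and each sequence reads 5′ to 3′ on the strand of the gene, from RefSeq on GRCm38.p6. The first 3 are from genes that were lower in LIP.
Cdk1, chr10:69352913-69353062, minus strand: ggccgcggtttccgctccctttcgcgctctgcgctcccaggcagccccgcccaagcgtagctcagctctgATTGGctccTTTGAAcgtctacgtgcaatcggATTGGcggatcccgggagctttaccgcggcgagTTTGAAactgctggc
Cks1b, chr3:89418292-89418441, minus strand: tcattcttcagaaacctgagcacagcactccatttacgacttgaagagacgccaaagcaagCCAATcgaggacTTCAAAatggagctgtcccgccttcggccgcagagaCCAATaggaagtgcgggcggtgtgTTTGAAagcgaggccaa
Hmgb2, chr8:57511693-57511842, plus strand: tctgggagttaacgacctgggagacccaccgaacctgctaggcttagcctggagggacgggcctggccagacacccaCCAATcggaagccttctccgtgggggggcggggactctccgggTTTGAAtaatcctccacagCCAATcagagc
The other 3 are from genes that were higher in LIP. The windows of Cdca3 and Nek2 belong to start sites inside the gene, whose RefSeq span begins at 124829530 and at 191821449. The bases before the outer start of Cdca3 were not searched.
Cdca3, chr6:124830026-124830175, plus strand: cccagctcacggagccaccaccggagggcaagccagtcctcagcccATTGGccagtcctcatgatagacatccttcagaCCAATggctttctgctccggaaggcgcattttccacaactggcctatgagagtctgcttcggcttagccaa
Nek2, chr1:191821323-191821472, plus strand: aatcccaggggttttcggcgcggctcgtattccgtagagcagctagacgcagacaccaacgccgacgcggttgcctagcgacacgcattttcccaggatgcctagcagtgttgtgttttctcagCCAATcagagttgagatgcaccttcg
Racgap1, chr15:99651657-99651806, minus strand: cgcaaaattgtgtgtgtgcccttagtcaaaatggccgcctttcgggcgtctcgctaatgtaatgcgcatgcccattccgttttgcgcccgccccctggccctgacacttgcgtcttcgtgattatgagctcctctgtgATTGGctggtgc

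Cdk1 and Cks1b each had TTTGAA close to the start site, beginning 15 and 17 bases before it, with a second copy 71 and 77 bases before it. Hmgb2 had the word 30 bases before the start site. All 3 printed genes that went up had CCAAT and neither TTTGAA nor TTCGAA in the 250 bases before the start site used. TTTGAA or TTCGAA was in 3 of the 8 genes called lower, in 0 of the 3 genes called higher that have a window, and in 13 of the 28 uncalled genes with a window. CCAAT was in 5 of the 8 genes called lower, in 3 of these 3 called higher and in 23 of these 28. These are counts over a few genes and were not tested.

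Mitotic mRNAs were plentiful in LSK cells of both groups. On the deposited TPM scale, which corrects for transcript length, the members ran from 12.2 (Cdc25c) to 951 (Hmgb2) in NL, with a median of 63.1. Hmgb2, a chromatin protein of dividing cells, and Tubb4b, a beta-tubulin, stood first, at 951 ± 38.4 and 566 ± 8.06 TPM (SD, n = 3). Cks1b and Cks2, small adaptors of cyclin-dependent kinases, followed at 277 ± 6.01 and 251 ± 5.85 TPM. Ube2c at 197 ± 6.73 and Top2a at 191 ± 0.448 TPM did not differ beyond their spread, nor did Mki67 at 120 ± 3.16 and Smc4 at 120 ± 4.03 TPM. Cdk1 stood at 73.9 ± 1.5 TPM, between Ccnb1 at 66.0 ± 2.46 and Ccnb2 at 108 ± 1.90 TPM. At the low end, Cdc25c at 12.2 ± 0.572 and Cenpf at 12.5 ± 0.112 TPM did not differ beyond their spread either.

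**Figure D1:**
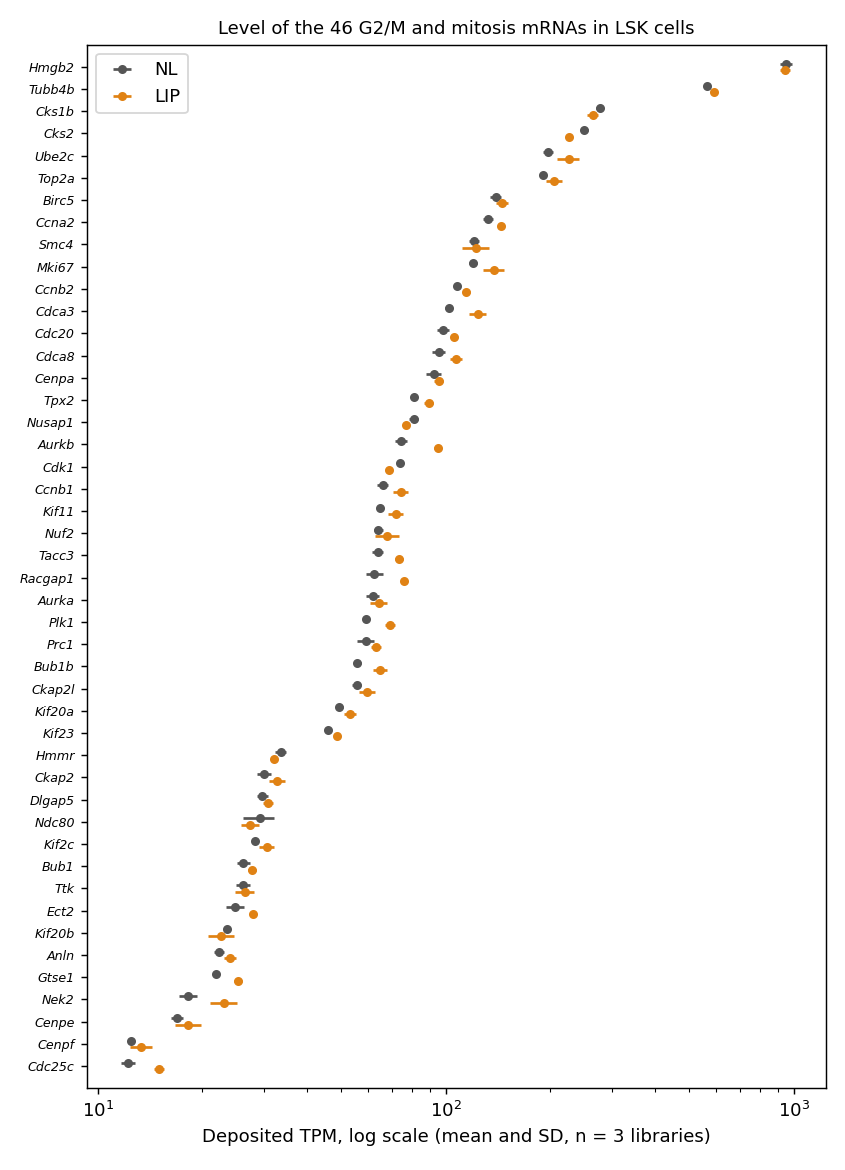
Deposited TPM (x axis, log scale; mean and SD of 3 libraries) of the 46 members, ordered by their NL level, in NL (grey) and LIP (orange). Levels span from 12.2 TPM for Cdc25c to 951 TPM for Hmgb2, and LIP points lie to the right for 38 of 46 members, as for 78.4% of all tested genes on this scale.

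TPM was used only to rank genes and to form ratios within a library. Mean TPM was higher in LIP for 38 of the 46 members, with a median log2 ratio of 0.10, but also for 78.4% of all tested genes, whose median was 0.13. Groups were therefore compared on CPM, counts relative to library totals scaled with TMM factors, with edgeR's quasi-likelihood test across all 12564 tested genes. Genes are called at a Benjamini-Hochberg adjusted p below 0.05, with every tested gene in the adjustment. Log2 fold changes are LIP over NL.

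Calls among the mitotic genes went in both directions. Of the 46 members, 12 were called, 4 higher and 8 lower in LIP, a share of 26.1% against 29.9% of all tested genes (14.1% higher and 15.8% lower). Their median log2 fold change was -0.02 and that of all tested genes -0.0007. Called or not, 30 members lay below 0 and 16 above, where 6311 of all tested genes lay below and 6253 above. The median of the members was 0.020 with total counts alone, where that of all tested genes was 0.044. With the length and GC offset these medians were 0.0036 and 0.0004. This lean in sign was not tested. The share called was near that of genes in general, so it is no result about mitotic genes. With total counts alone as the scale, 8 were called higher and 8 lower, where 32.3% of all tested genes were called (21.9% higher and 10.4% lower). With an offset for the trend on transcript length 6 were higher and 9 lower, where 27% of all tested genes were called (13.2% and 13.9%). With an offset for length and GC content 6 were higher and 5 lower, where 24.9% of all tested genes were called (12.3% and 12.6%). The largest change of any member was 1.21-fold, a fall in Cks2, and the median absolute log2 fold change was 0.07, against 0.10 over all tested genes.

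The libraries gave the same picture. With the NL mean of each member set to 0, the median log2 CPM of the 46 members was 0.0063, -0.017 and 0.014 in NL-1, NL-2 and NL-3. It was -0.010, -0.011 and -0.047 in LIP-1, LIP-2 and LIP-3. LIP-3 was the lowest library, and LIP-1 and LIP-2 lay inside the NL range. LIP-3 held the lowest CPM for 15 members, and without it the median log2 fold change was -0.0050. Groups did not overlap for 16 of the 46 members, where 40.9% of all tested genes had no overlap (19.9% with LIP higher and 21% with LIP lower).

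**Figure D2:**
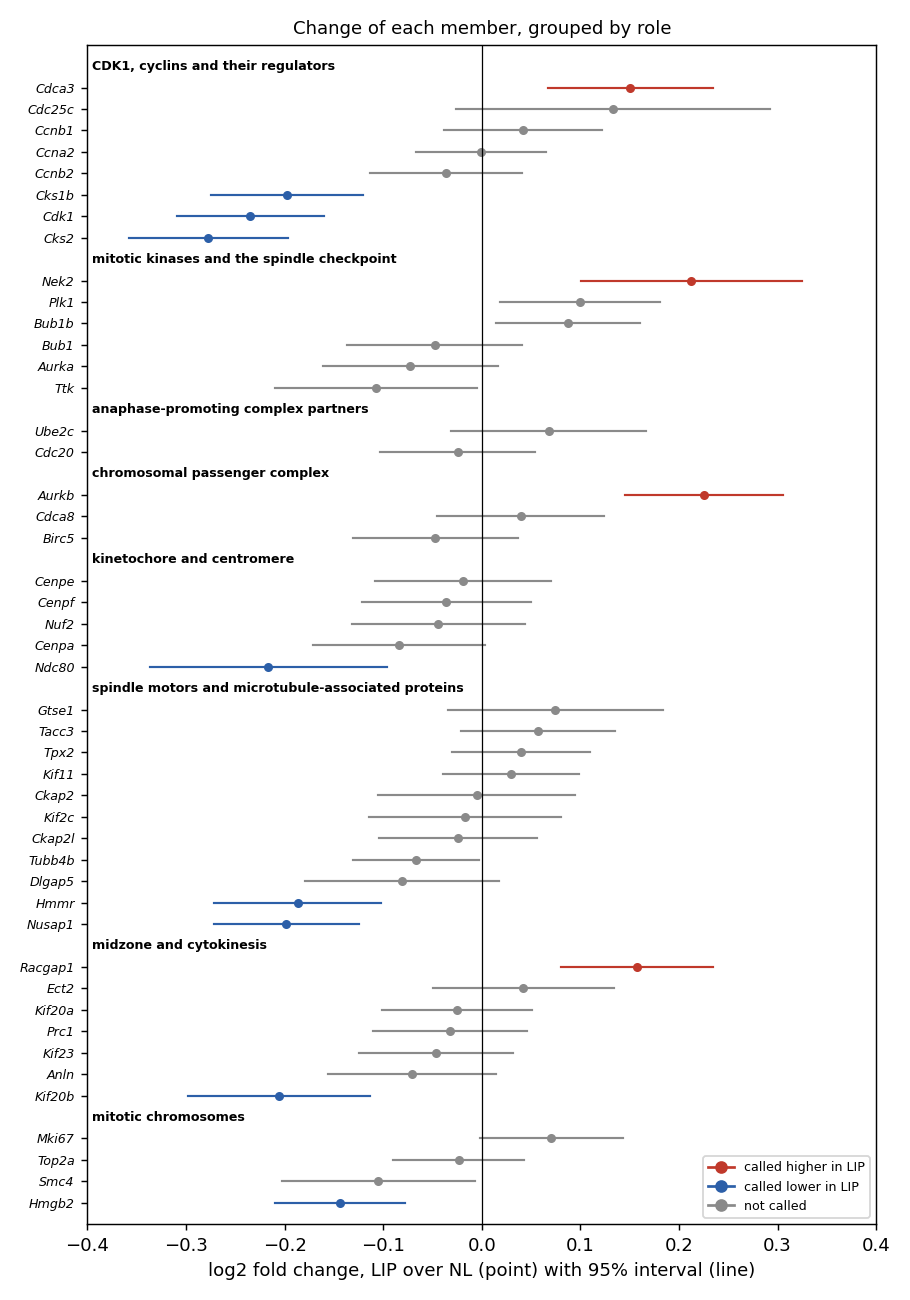
Log2 fold change of each member, LIP over NL (x axis; point), with its 95% interval (line), grouped by role. There are 4 members called higher (red) and 8 called lower (blue). Calls of both kinds occur in the CDK1 and midzone roles, and other roles with calls hold a single kind. Values lie between -0.28 for Cks2 and 0.23 for Aurkb.

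Among CDK1, the cyclins and their regulators, the kinase and its small adaptors fell while the cyclins were not called. Cdk1 encodes the kinase that drives entry into mitosis (chromosome 10, 69335146 to 69352912). It measured 122, 128 and 125 CPM in NL-1 to NL-3 and 109, 105 and 105 CPM in LIP-1 to LIP-3. Every LIP library lay below every NL library, and the log2 fold change was -0.23 ± 0.04 (SE), with an edgeR adjusted p of 1.1e-06. Cks2, whose product binds CDK1 (chromosome 13, 51645232 to 51650662), measured 89.6, 93.9 and 95.5 CPM in NL and 77.4, 75.5 and 77.3 CPM in LIP. The groups did not overlap, and its log2 fold change of -0.28 ± 0.04 (edgeR adjusted p 1.54e-07) was the largest among members.

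Cks1b encodes the related adaptor that also serves the ubiquitin ligase removing the CDK inhibitor p27 (chromosome 3, 89415472 to 89418291). It measured 113, 112 and 116 CPM in NL and 104, 94.4 and 98.8 CPM in LIP. The groups were again apart, with a log2 fold change of -0.20 ± 0.04 and an edgeR adjusted p of 5.61e-05. Cks1b and Cks2 have the shortest transcripts of all members, with effective lengths of 670 and 607 bases. With an offset for transcript length Cks1b stood at -0.04 (edgeR adjusted p 0.397) and Cks2 at -0.11 (edgeR adjusted p 0.0301), and with length and GC content together Cks2 stood at -0.08 (edgeR adjusted p 0.124). Cdk1, of middling length, stood at -0.24 under both offsets.

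The cyclins that partner CDK1 were not called. Ccnb1, cyclin B1, measured 92.9, 87.2 and 89.8 CPM in NL and 93.3, 95.7 and 88.9 CPM in LIP, overlapping groups with a log2 fold change of 0.04 (95% interval -0.04 to 0.12). The intervals were -0.11 to 0.04 for Ccnb2, cyclin B2, and -0.07 to 0.07 for Ccna2, cyclin A2. Cdc25c, the phosphatase that activates CDK1, stood at 0.13 with the widest interval of all members, -0.03 to 0.29, and was the lowest-expressed member in CPM. Cdca3, which encodes an adaptor that helps mitotic entry (chromosome 6, 124829530 to 124833701), went the other way. It measured 86.1, 87.6 and 90.4 CPM in NL and 100, 90.2 and 103 CPM in LIP. LIP-2 lay inside the NL range, and the log2 fold change was 0.15 ± 0.04 (edgeR adjusted p 0.00431).

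Of the 6 mitotic kinase and spindle checkpoint genes, 1 was called (16.7%, against 29.9% of all tested genes). Nek2, a kinase of centrosome separation (chromosome 1, 191821449 to 191833049), measured 35.3, 32.7 and 36.5 CPM in NL and 37.4, 43.2 and 40.4 CPM in LIP. The groups did not overlap, and Nek2 rose by 0.21 ± 0.06 on the log2 scale (edgeR adjusted p 0.00253). Plk1, the polo-like kinase, and Bub1b, the checkpoint protein BubR1, missed the threshold narrowly. Plk1 measured 76.8, 75.9 and 77.8 CPM in NL and 83.1, 83.4 and 80.4 CPM in LIP, groups that did not overlap, with an edgeR adjusted p of 0.0554. Plk1 was called with the length offset, with RLE scaling, with total counts alone and without LIP replicate 3. In the other 14 of 18 alternatives it was not called, and with the length and GC offset it stood at 0.06 (edgeR adjusted p 0.286). Bub1b stood at 0.09 with an edgeR adjusted p of 0.0636, and was called only with total counts alone. With the length and GC offset Bub1b stood at 0.05 (edgeR adjusted p 0.264). Aurka, the centrosomal Aurora kinase, and the checkpoint kinases Bub1 and Ttk stood at -0.07, -0.05 and -0.11.

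The anaphase-promoting complex is driven by its activator Cdc20 and the ubiquitin-conjugating enzyme Ube2c, and neither mRNA was called. Ube2c measured 104, 100 and 99.9 CPM in NL and 114, 95.7 and 110 CPM in LIP, where LIP-2 was the lowest of all 6 libraries. Its log2 fold change of 0.07 had a 95% interval of -0.03 to 0.17. With the length offset it was 0.19 (edgeR adjusted p 4.57e-04), with length and GC content together 0.14 (edgeR adjusted p 0.00461), and without LIP replicate 2 it was 0.14 and also called. Ube2c has the third shortest transcript among members, with an effective length of 845 bases, and its counts were not whole, so some reads may be shared with other loci. Cdc20 stood at -0.02 (95% interval -0.10 to 0.06).

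In the chromosomal passenger complex, which corrects faulty attachments and then moves to the spindle midzone, the kinase subunit rose. Aurkb (chromosome 11, 69045624 to 69051664) measured 85.1, 82.6 and 88.8 CPM in NL and 101, 95.9 and 103 CPM in LIP. All LIP libraries were above all NL libraries, and the log2 fold change was 0.23 ± 0.04, a 1.17-fold rise with an edgeR adjusted p of 1.01e-05. This was the largest rise of any member, and Aurkb was called in every alternative run. Its partners Birc5 (survivin) and Cdca8 (borealin) were not called, at -0.05 (95% interval -0.13 to 0.04) and 0.04 (95% interval -0.04 to 0.12). Incenp, the scaffold of the same complex and not a member, rose by 0.21 ± 0.04 (edgeR adjusted p 4.82e-06).

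Kinetochore and centromere genes had 1 call among 5 (20%, against 29.9% of all tested genes). Ndc80, which encodes the microtubule-binding subunit that gives the NDC80 complex its name (chromosome 17, 71496100 to 71526857), measured 41.3, 34.1 and 37.7 CPM in NL and 34.3, 32.7 and 30.4 CPM in LIP. NL-2 lay inside the LIP range, and NL-1 was the highest library. The log2 fold change was -0.22 ± 0.06 (edgeR adjusted p 0.00441), and without NL replicate 1 it was -0.14 and not called. Nuf2, its partner in the same complex, stood at -0.04 (95% interval -0.13 to 0.04). Cenpa, the centromeric histone H3 variant, Cenpe, a kinetochore motor, and Cenpf, a large kinetochore protein, stood at -0.08, -0.02 and -0.04, none of them called.

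Among 11 spindle genes, 2 were called lower and none higher (18.2% called, against 29.9% of all tested genes). Nusap1, which bundles microtubules near chromosomes (chromosome 2, 119618298 to 119650165), measured 142, 139 and 135 CPM in NL and 125, 122 and 116 CPM in LIP. Hmmr, a spindle-pole protein also known as a hyaluronan receptor (chromosome 11, 40701388 to 40733464), measured 79.9, 75.4 and 80.2 CPM in NL and 71.1, 67.0 and 68.8 CPM in LIP. In both genes the groups did not overlap. The log2 fold changes were -0.20 ± 0.04 for Nusap1 and -0.19 ± 0.04 for Hmmr, with edgeR adjusted p of 2.17e-05 and 4.59e-04. Neither gene had whole counts, so reads shared with other loci are possible. The motors Kif11 and Kif2c and the proteins Tpx2, Tacc3, Gtse1, Ckap2, Ckap2l, Dlgap5 and Tubb4b lay between -0.08 (Dlgap5) and 0.07 (Gtse1) without a call. Tacc3, a spindle-pole protein at 0.06, was called higher with total counts alone.

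Genes of the spindle midzone and of cytokinesis went both ways. Racgap1, the GTPase-activating subunit of centralspindlin (chromosome 15, 99620496 to 99651656), measured 112, 102 and 112 CPM in NL and 125, 120 and 120 CPM in LIP. Kif20b, a kinesin of the midbody (chromosome 19, 34922335 to 34975750), measured 71.5, 72.5 and 70.3 CPM in NL and 67.0, 61.9 and 57.1 CPM in LIP. The groups were apart in both genes, in opposite directions. Racgap1 rose by 0.16 ± 0.04 (edgeR adjusted p 0.00113) and Kif20b stood at -0.21 ± 0.05 (edgeR adjusted p 4.37e-04). Kif23, the motor subunit of centralspindlin, stood at -0.05, and Ect2, the exchange factor that centralspindlin recruits to start furrowing, at 0.04, both uncalled. Prc1, Kif20a and Anln, which bundle, move along or scaffold the midzone and furrow, stood at -0.03, -0.02 and -0.07.

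The proliferation markers of mitotic chromosomes were not called. Mki67, which encodes the Ki-67 protein that coats mitotic chromosomes, measured 696, 686 and 661 CPM in NL and 741, 742 and 663 CPM in LIP. LIP-3 lay inside the NL range, and without it Mki67 was called, at 0.12, as it was with total counts alone. Top2a, topoisomerase II alpha, measured 594, 599 and 598 CPM in NL and 593, 610 and 561 CPM in LIP, with a log2 fold change of -0.02 (95% interval -0.09 to 0.04). Smc4, a condensin subunit, stood at -0.10 (edgeR adjusted p 0.102), with LIP-3 as its lowest library. Without LIP-3 Smc4 stood at -0.04, and without LIP replicate 2 at -0.15 and was called lower. It was also called lower with the length offset, with the replicate block, without a filter on low counts and among genes with whole counts only. Hmgb2 (chromosome 8, 57511843 to 57515999) fell from 744, 748 and 715 CPM in NL to 681, 665 and 652 CPM in LIP, groups that did not overlap. Its log2 fold change of -0.14 ± 0.03 (edgeR adjusted p 5.29e-04) became 0.04 (edgeR adjusted p 0.3) with the length and GC offset. Hmgb2 has the lowest GC content of all members, 38.7%.

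**Figure D3:**
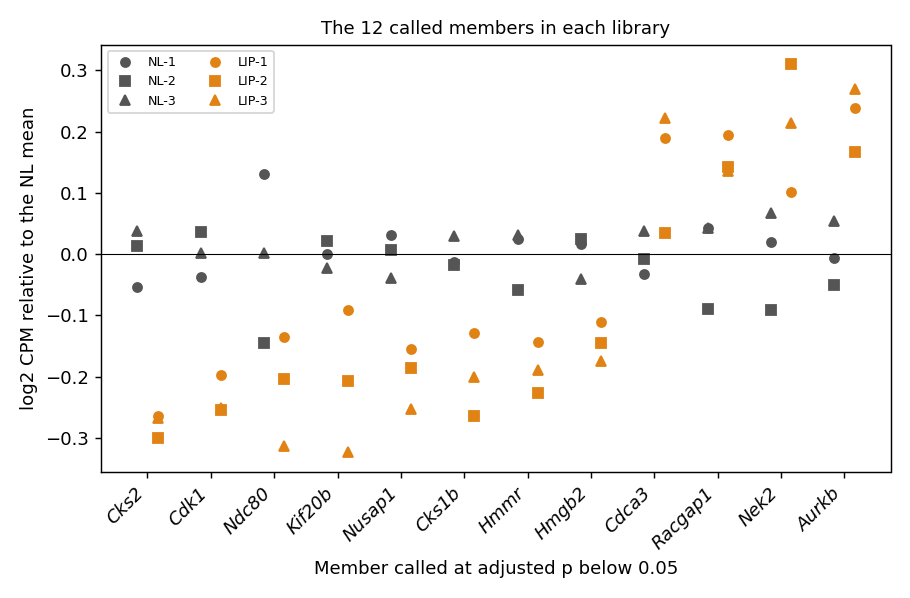
Log2 CPM relative to the NL mean (y axis) of the 12 called members (x axis) in each NL library (grey) and LIP library (orange), with a symbol for each replicate number. Points of the 2 groups overlap for Ndc80 and Cdca3 and are apart for the other 10 genes.

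Members called lower were poorer in GC than members called higher. GC content of the longest annotated transcript had a median of 42.1% (38.7% to 49.2%) among the 8 lower and 50.7% (46.3% to 52.5%) among the 4 higher members. Across the 46 members, Spearman's rho between log2 fold change and GC content was 0.43, and 0.06 with effective length. Across 12279 tested genes these were 0.24 and 0.28. All points come from the same 6 libraries, so these are descriptions across genes and carry no test. With the length and GC offset, rho with GC content among members was 0.18.

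The 4 rises kept their call under both offsets, and the falls did so in part. Aurkb, Nek2, Racgap1 and Cdca3 stood between 0.16 and 0.21 with the length and GC offset. Cdk1, Nusap1, Hmmr and Kif20b kept their call, Cdk1 at -0.24 and the other 3 at -0.13, -0.14 and -0.13. Cks1b, Cks2, Hmgb2 and Ndc80 lost theirs, with edgeR adjusted p of 0.269, 0.124, 0.3 and 0.0543. Under this offset Ube2c and Ect2 joined the genes called higher and Tubb4b those called lower, while Anln and Smc4 joined those called lower with the length offset alone.

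**Figure D4:**
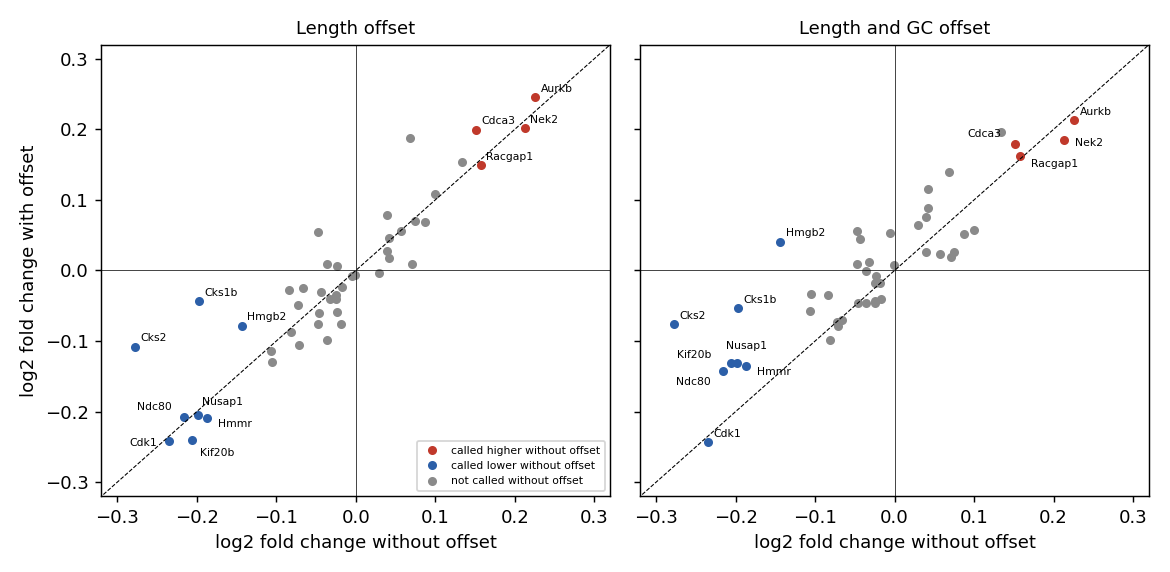
Log2 fold change of each member without an offset (x axis) against the value with an offset for transcript length (left) or for length and GC content (right), colored by the call without an offset. The dashed line marks equal values; Cks2, Cks1b and Hmgb2 move toward or past 0, while Cdk1 and the 4 members called higher stay near the line.

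Members that act together, and the 2 Aurora kinases, were compared as ratios of TPM within a library, which do not depend on how libraries are scaled. The 7 pairs were chosen after their values were seen, and each sets a called member over an uncalled one. Groups that lie apart in a ratio are therefore no separate support for a call. The adjustment over the 7 pairs does not cover pairs that were not picked. With 3 libraries against 3, the smallest p the exact two-sided permutation test can give is 0.1, so no pair could pass 0.05. Racgap1 over Kif23 was 1.42, 1.28 and 1.38 in NL and 1.59, 1.55 and 1.54 in LIP. Aurkb over Birc5 was 0.512, 0.526 and 0.564 in NL and 0.649, 0.666 and 0.647 in LIP. In both pairs every LIP ratio lay above every NL ratio, with log2 differences of 0.20 and 0.29 and an exact permutation p of 0.1 (0.117 adjusted over the 7 pairs). In the fitted log2 fold changes Aurkb differed from Birc5 by 0.27, but by 0.19 with the length offset and by 0.16 with the length and GC offset.

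Cdk1 over Ccnb1 was 1.06, 1.18 and 1.12 in NL and 0.940, 0.882 and 0.952 in LIP, a log2 difference of -0.28. The ratio crossed 1, so Cdk1 mRNA was above Ccnb1 per length in NL and below it in LIP. Against Ccnb2 the difference was -0.20, again without overlap. Aurkb over Cdca8 and Aurkb over Aurka differed by 0.19 and 0.30 without overlap, and each of these 4 pairs had an exact permutation p of 0.1. Ndc80 over Nuf2 overlapped between the groups, with a log2 difference of -0.17 and an exact permutation p of 0.2.

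**Figure D5:**
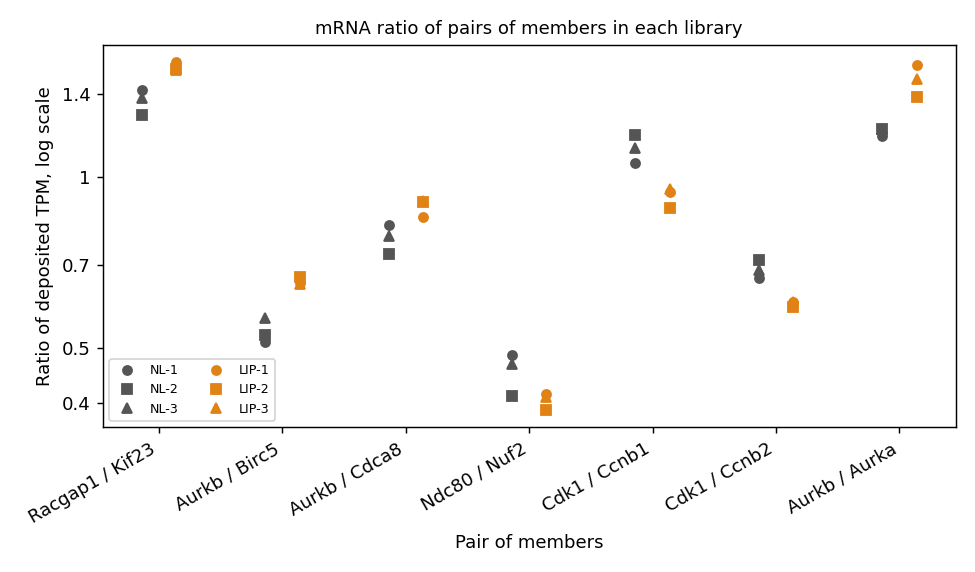
Ratio of deposited TPM (y axis, log scale) for 7 pairs of members (x axis), chosen after their values were seen, in each NL library (grey) and LIP library (orange). The groups are apart in 6 pairs and overlap for Ndc80 over Nuf2; Cdk1 over Ccnb1 lies above 1 in all NL libraries and below 1 in all LIP libraries.

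Other genes of mitosis, from lists that hold no member, also changed in both directions. Of 133 such genes, all tested, 22 rose and 30 fell (39.1%, against 29.9% of all tested genes), with a median log2 fold change of -0.01. With the length and GC offset 24 were called higher and 13 lower, where 12.3% and 12.6% of all tested genes were. With total counts alone 33 were called higher and 16 lower, where all tested genes also leaned to higher, 21.9% against 10.4%. Foxm1, the transcription factor of G2/M genes, rose by 0.16 ± 0.04 (edgeR adjusted p 0.00228) and Mybl2, which encodes B-MYB, by 0.15 ± 0.04 (edgeR adjusted p 0.00408). Both calls were lost with the length and GC offset, with edgeR adjusted p of 0.0826 and 0.118. Among the genes with the smallest p, the citron kinase gene Cit of cytokinesis rose by 0.33, the separase gene Espl1 by 0.28 and the spindle-pole gene Numa1 by 0.20. Iqgap3 and Arhgap11a rose by 0.27 and 0.22. Anapc10, a subunit of the anaphase-promoting complex, fell by 0.38, and the small subunit gene Anapc13 fell by 0.28. Also lower were the kinetochore gene Cenpq, which fell by 0.30, the augmin gene Haus3, which fell by 0.27, the checkpoint gene Mad2l1, which fell by 0.19, and the cohesin gene Stag2, which fell by 0.16. With the length and GC offset the calls of Anapc10, Anapc13, Haus3 and Mad2l1 were lost, with edgeR adjusted p of 0.0669, 0.892, 0.129 and 0.312, and that of Anapc13 also with the length offset (edgeR adjusted p 0.859). Among the genes named, Numa1 at 0.09, Espl1 at 0.18, Iqgap3 at 0.18, Cenpq at -0.19 and Stag2 at -0.07 kept their call there with smaller values. Held calls did not always shrink, and those of Anapc4 and Bora, other genes of these lists, became larger.

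The counts of the smaller lists moved with the processing. Over all tested genes 14.1% were called higher and 15.8% lower. Cytokinesis and other spindle genes had 10 higher and 5 lower of 35, and 10 higher and 2 lower with the length and GC offset. Inner and outer kinetochore genes had 2 higher and 6 lower of 28, or 28.6% called, near the 29.9% of all tested genes, and 3 higher and 4 lower with that offset. The 2 called higher without an offset were Cenpi and Incenp, the scaffold of the chromosomal passenger complex, which this list also holds. Condensin and cohesin genes had 1 higher and 6 lower of 18, but 6 higher and 3 lower with total counts alone, where all tested genes leaned to higher as well. The anaphase-promoting complex and separase list had 4 higher and 7 lower of 19, but 4 and 4 with the length offset, 5 and 4 with total counts alone, and 5 and 2 once length and GC content were offset. These counts were not tested against each other.

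Genes of the preceding step of the cycle, G1/S and DNA replication, also split. Of 44 tested, 6 rose and 11 fell (38.6%, against 29.9% of all tested genes), with a median of -0.02, near the -0.02 of the mitotic members. With total counts alone 12 were called higher and 10 lower, where 21.9% and 10.4% of all tested genes were. The offset for length and GC gave 9 and 13, where 12.3% and 12.6% of all tested genes were called. Clspn, a replication checkpoint adaptor, rose by 0.36, Timeless by 0.26 and E2f8, a repressor of E2F targets, by 0.22. Chaf1a and Tipin rose by 0.17 and 0.16. Ccne2, cyclin E2, fell by 0.36, Gins2 by 0.26, the sliding clamp gene Pcna by 0.25, and Rfc4, Rfc2, Slbp and Hells fell by 0.22, 0.18, 0.17 and 0.16. Rfc4 and Hells lost their call with the length and GC offset, with edgeR adjusted p of 0.162 and 0.365. Under that offset Pcna stood at -0.15, Ccne2 at -0.21, Slbp at -0.10 and Tipin at 0.31, all still called, and Gins2 stood at -0.16 with the length offset.

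The sorted cells carried the markers of the LSK gate in both groups. Kit stood at 512 ± 3.73 CPM in NL and 581 ± 9.52 CPM in LIP (SD, n = 3), where it was called higher (edgeR adjusted p 8.16e-06), and Ly6a, which encodes Sca-1, at 38.7 ± 0.803 and 37.0 ± 2.40 CPM. Markers of other cell types moved with the groups. The summed CPM of 10 neutrophil granule genes ran from 222 to 237 in NL and from 320 to 340 in LIP, with 9 of 9 tested members called higher. Ly6g had at most 3 counts in any library. For 9 monocyte and macrophage genes the sums were 463 to 474 and 593 to 618 CPM (6 higher, 1 lower of 9), and for 9 B-lineage genes 72.9 to 74.9 and 91.2 to 94.7 CPM (6 higher of 9). Of 8 erythroid genes, 2 were higher and 4 lower, with sums of 1212 to 1240 in NL and 1071 to 1120 CPM in LIP. Car2 and Car1 made up most of these sums, at 760 and 299 CPM in NL and 663 and 270 CPM in LIP. The 2 called higher were Slc4a1 and Rhag. T and NK cell genes had 4 of 8 higher, with sums of 143 to 152 in NL and 161 to 176 CPM in LIP. Most of these sums was Nkg7 alone, at 125 CPM in NL and 140 CPM in LIP. Group means of Cd3e, Cd3d and Cd3g were 0.493 to 1.91 CPM. Megakaryocyte and platelet genes had 4 of 7 higher, with sums of 174 to 189 and 198 to 207 CPM. Mast cell and basophil genes had 2 higher and 3 lower of 7, with overlapping sums. Hbb-b1, the ninth erythroid gene listed, was not analysed here. No marker that was measured stood at 0 in all libraries, and the part of such cells in the changes of mitotic genes was not tested.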

How the data were processed

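Messenger RNA of 6 LSK libraries was analysed, 3 LIP and 3 NL. Per the labels' protocols, Trizol RNA was selected by polyA, and a BGISEQ machine gave paired-end reads of 100 bp. The deposited table holds the authors' estimated counts, FPKM and TPM values for 16403 genes. The submitters' processing notes name STAR, HTSeq and GRCm38, without saying which tool made the estimated counts. The authors' deposited counts were whole in 86.3% to 86.8% of values. They were rounded before testing, since the planned test assumed whole counts. Library totals were 17780853 to 18841103 counts, and 3 counts then equal 0.159 to 0.169 CPM, a floor for counting error only. Deposited FPKM served only to derive effective transcript lengths, and 6 columns of group means were not used.

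In edgeR 4.0.16 (R 4.3.3), low counts were removed with filterByExpr, TMM factors were applied, and LIP was tested against NL by the robust quasi-likelihood method without covariates. Standard errors were derived from the test statistic. The code was tested on simulated data. Alternatives were DESeq2 1.42.0, limma-voom (limma 3.58.1), other scaling factors and filters, a replicate block, a stricter threshold of 0.01, genes with whole counts only and leaving out each library. The other 2 were offsets per library for trends on effective length alone and on length and GC content. Length was known for 99.2% and GC content for 98.5% of tested genes, and 12279 genes had both. The trends (lowess, span 0.3) were estimated on genes other than members, ribosomal protein and respiratory chain genes. GC content came from the longest GENCODE M21 transcript and gene positions from RefSeq on GRCm38.p6.

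The members and lists were chosen with earlier results of these data known. Values per library are given for called members, for the member with the smallest p in each of 8 roles, and for Cdk1, Ccnb1, Top2a and Mki67. Up to 12 called genes are named from each other list, smallest p first, with Foxm1 and Mybl2. Plk1 values were added after they were seen, since Plk1 came closest to a call. Incenp is among the smallest p. Nothing in the labels says that libraries of a group came from separate experiments, so p-values measure the spread between these pools.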

Additional observations from a re-analysis of the deposited data

How the results depend on the processing

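Of 18 alternatives, 8 of the 12 called members kept their call in every one that could be run, and 4 lost it in 1 or 2 (Cks1b, Cks2, Ndc80 and Hmgb2). Of 34 uncalled members, 9 were called in at least 1. The number of members called ranged from 11 to 14 when a library was left out, against 12 with every library in. In the same runs the count over all tested genes was lower, at 2987 to 3397 against 3760. The count of genes called, all tested genes included, fell from 3760 to 2484 with DESeq2 and 2493 at an adjusted p below 0.01, and other mitosis genes from 52 to 34 under either. G1/S genes called fell from 17 to 11 among genes with whole counts only, where 38 of 44 were tested. The members' median log2 fold change was 0.020 on the scale of total counts, became 0.0036 once length and GC content were offset, and ranged from -0.036 to -0.0050 when a library was left out, the latter without LIP replicate 3.

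Signs turned for 15 uncalled members and for Hmgb2, to 0.041 with the length and GC offset. With total counts alone the log2 fold change was 0.044 for Ccna2, 0.0080 for Ccnb2, 0.020 for Cdc20, 0.026 for Cenpe, 0.0083 for Cenpf, 0.00015 for Nuf2, 0.027 for Kif2c, 0.039 for Ckap2, 0.020 for Ckap2l, 0.019 for Kif20a, 0.012 for Prc1 and 0.021 for Top2a. With the length offset it was 0.0097 for Ccnb2, 0.0056 for Cdc20, 0.054 for Birc5 and -0.0029 for Kif11. With the length and GC offset it was 0.0083 for Ccna2, 0.0091 for Bub1, 0.056 for Birc5, 0.045 for Nuf2, 0.053 for Ckap2 and 0.013 for Prc1. Ccna2 was also positive with DESeq2 (0.0020), RLE scaling (0.0020), no filter (0.0020) and the stricter filter (0.00073). Leaving out 1 library gave ranges of -0.022 to 0.018 for Ccna2, -0.052 to 0.010 for Cdc20, -0.074 to 0.035 for Cenpe, -0.072 to 0.015 for Cenpf, -0.079 to 0.013 for Nuf2, -0.043 to 0.0043 for Kif2c, -0.042 to 0.019 for Ckap2, -0.064 to 0.017 for Ckap2l, -0.055 to 0.011 for Prc1 and -0.050 to 0.0090 for Top2a. The cause of these turns was not tested.

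Same-numbered libraries did not deviate together, with correlations of 0.034, -0.018 and -0.12, so the labels' numbers were not taken as pairs. With the replicate block the count of genes called, all tested genes included, was 3729, and 13 members were called. In Smc4, the member that gained a call with the block, the log2 fold change stayed negative. The smallest change of a called member was 0.14 in size on the log2 scale, and the largest of an uncalled member was 0.13. How small a difference 3 libraries a group can detect was not computed, so uncalled members may still differ between the groups.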
